A study of Mus musculus with 44 samples.

Results

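Livers of Mlkl knockout mice on CD-LFD, a low-fat diet deficient in choline, were compared with livers of Mlkl knockout mice fed normal chow as the control diet. The members are 10 of the 44 sequenced libraries, 4 on CD-LFD and 6 on the control diet, taken by the genotype and diet in the labels. The study fed wild type (WT), Ripk3 knockout (Ripk3KO) and Mlkl knockout (MlklKO) mice the control diet, CD-LFD or its high-fat counterpart CD-HFD and sequenced liver RNA. All mice of the groups used here started the diet at 2 months of age and stayed on it for 6 months. The MlklKO groups are labelled Mlkl-/- on both diets, so the groups differ in diet by their labels and share the genotype. The labels do not say how the allele was made, on which strain it was kept, the sex of the mice, or the hour at which livers were taken. WT (6 CD-LFD, 6 control) and Ripk3KO (3 CD-LFD, 6 control) mice on the same diets serve as comparisons.

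MLKL is the pore-forming protein that carries out necroptosis, a lytic form of cell death. RIPK3 phosphorylates MLKL, which then moves to the plasma membrane and ruptures it. Choline is needed to make phosphatidylcholine, which coats very-low-density lipoprotein, and livers short of it retain triglyceride, become inflamed and scar. Choline-deficient diets are therefore used as mouse models of steatohepatitis and of the liver tumours that follow it.

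Levels are given as CPM, read counts scaled to the size of each library and by TMM, a factor for its composition. Differences are log2 fold changes with standard errors (SE) from edgeR's quasi-likelihood test, and a gene is said to have risen or fallen when its Benjamini-Hochberg adjusted p was under 0.05. Total counts were 6660141 to 12471844 in the CD-LFD libraries and 5451832 to 9291737 in the controls, and 1 WT CD-LFD library held 88204703. The labels do not say whether each library came from a separate mouse, so p-values measure the spread between these libraries. Where every library of a group lay under the floor, the level that 3 counts give in its shallowest library (0.652 CPM for the controls and 0.481 for CD-LFD, counting error only), a fold is given as a bound against that floor. Mlkl transcript was still counted in the knockout, at 4.15, 2.98, 3.37 and 3.43 CPM on CD-LFD and 1.46 to 3.04, median 2.10 on the control diet, against 9.85 to 14.5 in WT mice on CD-LFD and 2.28 to 6.15 in WT controls. Its change on the diet did not pass the test (log2 0.64, SE 0.30, adjusted p = 0.088, and 0.040 with scaling by library size only). The table does not show which exons the reads came from, so these values neither check the deletion nor measure protein. Hepatocyte markers were abundant in every library (Alb at 69742 to 86012 CPM in controls and 88060.2 to 96992 on CD-LFD), acinar pancreas genes did not reach the count filter, and Cfd was the 1 adipocyte marker of 5 that did. All 10 libraries carried Y-linked transcripts (Ddx3y at 44.2 to 53.5 CPM on CD-LFD and 81.1 to 123 in controls) and little Xist (up to 1.12).

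Several properties of the libraries moved with the diet. The log2 ratio of Arntl (BMAL1) to Dbp, which swings over the day in liver, was -7.05 to -5.85 on CD-LFD and -4.96 to -3.67 in controls, with no overlap (exact permutation test, two-sided p = 0.0048, the smallest that 4 against 6 libraries allow). In WT libraries it was -2.66 to -0.28 on CD-LFD and -7.88 to 2.69 in controls, so no WT CD-LFD library fell within the MlklKO range. The TMM factor was 0.911 to 0.951 against 0.816 to 0.863 (p = 0.0048), and genes with at least 1 count numbered 19082 to 20814 against 17001 to 18989 (p = 0.0095), by the same exact permutation test. The 10 most abundant genes took 19.8 to 21.1% of counts against 17.5 to 19.6% (exact permutation p = 0.0048), and total counts did not separate the groups (0.55). Adjusted over these 5 measures the p-values were 0.0079 for the ratio, the TMM factor and the 10 genes, 0.012 for genes with a count and 0.55 for total counts. Mitochondrial transcripts took 4.25 to 7.63% of counts on CD-LFD and 2.77 to 4.75% in controls. The part of these measures in the results below was not tested, apart from the fit with the ratio as a covariate. Among the controls, replicate 6 stood apart over the profile, at -45.3 on the second principal component against -2.29 to 20.7 for the other 5. CD-LFD replicate 4 differed more from the other 3 (chi-square per degree of freedom 27.5 to 28.6) than these from each other (9.65 to 11.1). Genes in which they stood apart are described with their lists. Ripk3KO control replicates 1 and 2 were low in acute phase genes, with Saa1 at 13.2 and 37.9 CPM against 2075 to 9103 in that group's other 4, and Mt1 at 86.5 and 84.0 against 999.7 to 1365.

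**Figure D1:**
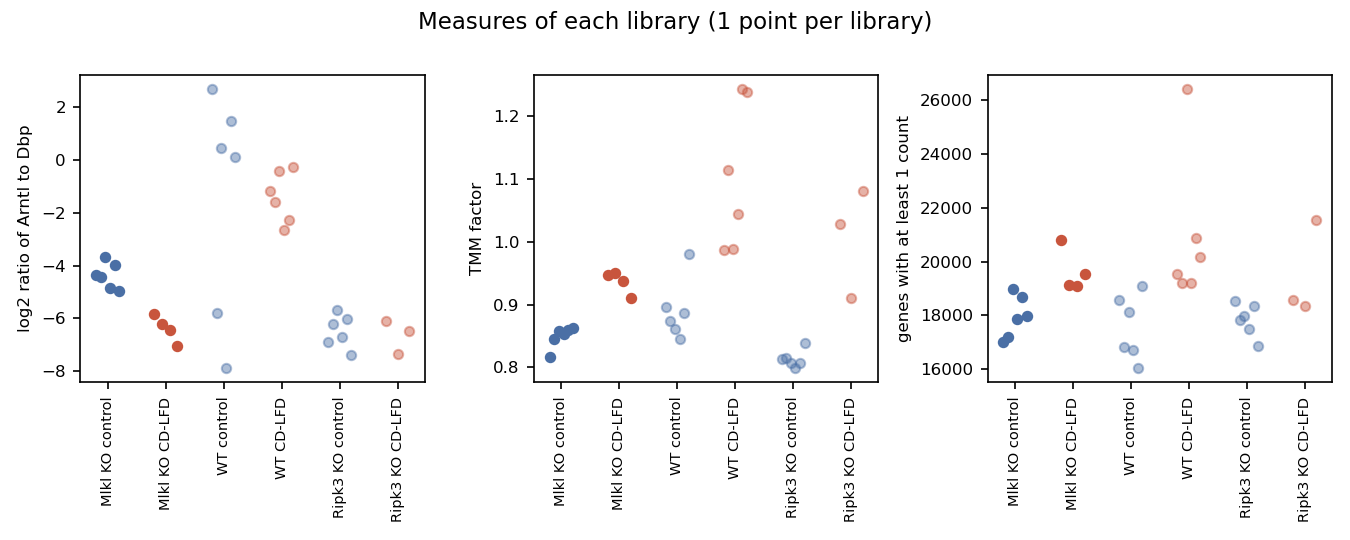
Each point is 1 library; columns are groups by genotype (KO, knockout) and diet, and the vertical axes give the log2 ratio of Arntl to Dbp, the TMM factor without unit and the number of genes with at least 1 count. The MlklKO groups do not overlap in any of the 3 panels, and the Arntl to Dbp ratio of the WT CD-LFD libraries lies above that of every MlklKO library.

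The diet changed 37.9% of the 14862 genes tested, 2925 upward (19.7%) and 2713 downward (18.3%). Of these 1791 rose (12.1%) and 838 fell (5.64%) by at least 2-fold. In 2028 genes (13.6%) all 4 CD-LFD values lay above all 6 controls, and in 1821 (12.3%) below. Over all genes tested the median log2 change stood at 0.06. With scaling by library size only it was 0.20, and the split became 3733 higher and 1913 lower. The counts below for gene lists are read against these shares, and each list's median against 0.06.

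**Figure D2:**
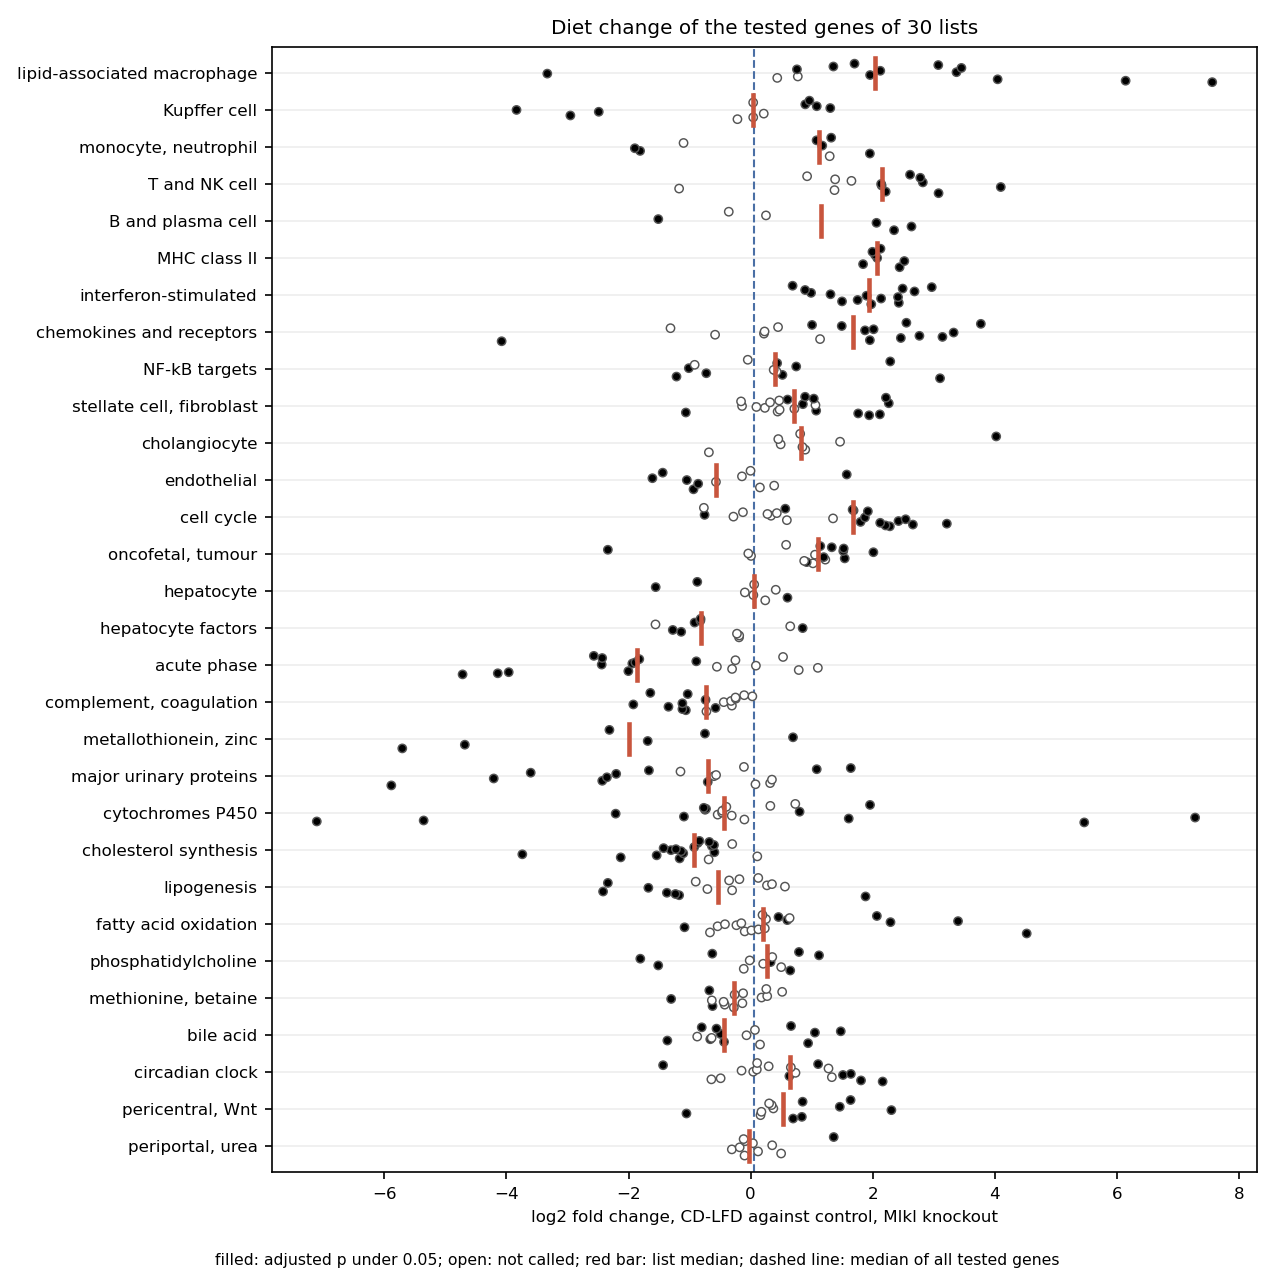
Each point is the log2 fold change (CD-LFD against control in MlklKO) of 1 tested gene with 1 line of points per gene list, filled where the adjusted p was under 0.05; red bars mark list medians and the dashed line the median of all tested genes at 0.06. Lipid-associated macrophage, MHC class II and interferon-stimulated lists lie to the right, with medians of 1.94 to 2.07, and acute phase and metallothionein lists to the left, with medians of -1.86 and -2.0.

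Markers of the macrophages that gather around lipid-laden and dying hepatocytes were among the steepest rises. Gpnmb, a transmembrane glycoprotein of lipid-loaded macrophages, measured 34, 68.4, 41.9 and 46.8 CPM in the 4 CD-LFD libraries and 0 to 0.869, median 0.142 in the controls (log2 7.56, SE 0.48, adjusted p = 1.3e-15). Every CD-LFD library was far above every control, and without control replicate 2, the control with most Gpnmb, the log2 change was 8.19. Mmp12, the macrophage elastase, measured 22.1, 42.2, 17 and 26.4 CPM against 0.215 to 0.628, median 0.295, with every control under the floor of 3 counts, so the rise was at least 41.3-fold (adjusted p = 4.8e-16). Trem2, the lipid-sensing receptor of these cells, measured 14, 19.4, 9.94 and 11.2 against 0.276 to 1.64, median 0.703 CPM (log2 4.05, SE 0.33, adjusted p = 2.4e-12). Of the 14 lipid-associated macrophage genes, 11 rose and 1 fell, with a median log2 change of 2.04. Lgals3 (galectin-3, log2 3.37), Itgax (CD11c, 3.45), Clec7a (dectin-1, 3.07), Cd63 (2.12) and Lpl (lipoprotein lipase, 1.96) rose without overlap. The member that fell was Fabp5, a fatty acid binding protein that hepatocytes also make, at 15.8 to 22.3 CPM against 70.9 to 462 (log2 -3.33). Spp1 (osteopontin) and Cd9 did not pass the test, with log2 changes of 0.77 (adjusted p = 0.075) and 0.44 (adjusted p = 0.066). Spp1 passed without control replicate 5 (0.040), and Cd9 without control replicate 1 or 3 or CD-LFD replicate 1 (0.040 to 0.050). In bulk liver, more cells of a type and more RNA per cell cannot be told apart.

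Resident macrophage markers did not move together. Of 11 Kupffer cell genes tested, 4 rose and 3 fell, with a median log2 change of 0.04. The 3 that fell were scavenger and phosphatidylserine receptors of resident Kupffer cells: Cd163 at 0.933, 0.596, 1.28 and 0.894 CPM against 3.88 to 27.1, median 10.1 (log2 -3.83, adjusted p = 6.0e-06), Timd4 (TIM-4) at 0.424, 0.596, 0.321 and 0 against 0.966 to 5.40, median 2.80 (log2 -2.95) and Marco at 0.933, 0.894, 1.76 and 0.894 against 2.37 to 13, median 6.0 (log2 -2.49). All 4 CD-LFD libraries were below all controls in each. Clec4f and Vsig4, which are close to exclusive to Kupffer cells, did not pass the test: Clec4f measured 60.5, 60.8, 51.8 and 15.3 CPM against 29.5 to 99, median 50.2, and Vsig4 11.4, 12.8, 14.3 and 4.32 against 6.21 to 15.3. The 4 that rose were the complement genes C1qa (log2 1.30), C1qb (1.08) and C1qc (0.89) and the receptor Csf1r (0.96). Of 8 monocyte and neutrophil genes tested, 4 rose and 2 fell. Those that rose included Ccr2, the receptor that draws monocytes from blood, at 7.04, 6.41, 7.54 and 7.15 CPM against 0.875 to 3.26, median 1.53 (log2 1.95, adjusted p = 1.1e-04), Plac8 (log2 1.32) and Csf3r, the G-CSF receptor of neutrophils (log2 1.08). The other was the integrin Itgam, whose call was lost without control replicate 4 or 6 or CD-LFD replicate 2. The 2 that fell, S100a8 (log2 -1.81) and S100a9 (-1.90), are made by neutrophils, and neither call held without CD-LFD replicate 1. The call of C1qc was lost without CD-LFD replicate 1 or 2.

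Antigen presentation rose as a block. All 7 MHC class II genes rose, each with the 4 CD-LFD libraries above the 6 controls, and their median log2 change was 2.07. Cd74, the invariant chain that fills the class II groove, measured 199, 200.4, 199.7 and 98.1 CPM against 34.4 to 61.8, median 38.2 (log2 2.07, SE 0.26, adjusted p = 1.7e-07). H2-Aa (log2 2.44), H2-Eb1 (2.52) and H2-Ab1 (1.84) encode the presenting chains, and Ciita (2.13) is their transcriptional switch. Of 13 T and NK cell genes tested, 8 rose and none fell. Cd8a, the co-receptor of cytotoxic T cells, measured 3.73, 1.04, 5.13 and 1.79 CPM against 0 to 0.438, median 0.0628, a rise of at least 4.49-fold over the floor (adjusted p = 7.2e-05). Nkg7, a granule protein of cytotoxic lymphocytes, measured 2.46, 1.94, 5.45 and 1.04 against 0.138 to 0.729, median 0.297 (log2 2.82), and Trac, the T cell receptor alpha constant chain, 3.56, 2.83, 1.44 and 1.34 against 0 to 1.17, median 0.406 (log2 2.15). These are low levels, and 7 of the 13 genes were at the floor in the control group. Their median log2 change of 2.15 became 0.65 with those genes at their lower bounds. With only the diet and control groups in the fit, 0 of the 13 passed the count filter, so they were not tested there. Among 6 B and plasma cell genes, 3 rose, Cd79a and Cd79b of the B cell receptor among them, and Ighm fell (log2 -1.51). The fall was lost without control replicate 2 or without CD-LFD replicate 4. With only the diet and control groups in the fit 3 of the 6 were tested and 0 rose.

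Chemokines and their receptors rose in 11 of 18 cases and fell in 1. Cx3cr1, the fractalkine receptor of monocyte-derived macrophages, measured 8.31, 8.05, 7.70 and 8.19 CPM against 0.146 to 1.13, median 0.530 (log2 3.77, SE 0.47, adjusted p = 9.1e-08). Ccl5, a T cell attractant, measured 6.44, 4.17, 12.2 and 5.06 against 0.217 to 2.19, median 0.716 (log2 2.76), and Cxcl9, which is induced by interferon-gamma, 23, 11.6, 42 and 11.5 against 3.88 to 8.54, median 5.75 (log2 1.87). Both sets of 4 were above all controls. The member that fell was Cxcl1, the neutrophil attractant, described with the acute phase genes. The median over the 18 was 1.68, or 0.86 with the 3 genes at the floor set to their bounds. NF-kB targets were split, with 5 of 12 higher and 3 lower and a median of 0.40. Tnf was under the floor in every control and 1.02, 1.19, 1.76 and 1.04 CPM on CD-LFD, at least 1.92-fold higher, and Traf1, an adaptor of TNF receptors, rose by 2.29 on the log2 scale. Tnfaip3 (the inhibitor A20, log2 -1.21), Icam1 (an adhesion molecule, -1.01) and Nfkb1 (-0.73) fell, and none of these 3 calls held without control replicate 1. The call of Icam1 was also lost without CD-LFD replicate 4 and that of Tnfaip3 without CD-LFD replicate 1. The count that rose was 2 or 3 without any of 6 single libraries (control replicates 4 to 6, CD-LFD replicates 1 to 3).

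All 14 interferon-stimulated genes rose, with a median log2 change of 1.94, and in 13 of them the 4 CD-LFD libraries were above the 6 controls. Rsad2 (viperin) was the exception, with overlapping groups and a call that was lost without any of 5 single libraries (control replicates 3, 4 or 6, CD-LFD replicates 1 or 4). Isg15, a ubiquitin-like modifier, measured 48.1, 18.6, 18.9 and 20.8 CPM against 3.88 to 9.25, median 6.87 (log2 1.98, SE 0.38, adjusted p = 9.6e-05). Usp18, the protease that removes it, measured 46.9, 24.3, 25.7 and 19.5 against 2.39 to 6.28, median 4.80 (log2 2.68, SE 0.30, adjusted p = 7.2e-09). Within the diet group, CD-LFD replicate 1 was the highest of the 4 for Isg15 and Usp18, and the other 3 were close to each other. Ifi27l2a (log2 2.97), Ifi44 (2.49), Ifit1 (2.43) and Oas1a (2.41) rose by more than the list's median, and Bst2 (0.69) by less. In WT 13 of the 14 rose on the same diet (median 1.75, where 13.7% of all genes rose), and in Ripk3KO 14 (median 2.39, against 14.0%).

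The interferon-stimulated response element, GAAANNGAAA on either strand, was looked for in the 250 bases before the start of each gene, because these genes moved together. It was found in 6 of the 10 list genes that the RefSeq promoter table (GRCm38.p6) holds (Isg15, Ifit1, Ifit3, Oas1a, Rsad2 and Bst2) and in 3.04% of all 27025 promoters of the same length. The 3 shown are of genes with large rises, 5' to 3' on the gene's strand, with matches in capitals (overlapping matches run together). The Isg15 window (chr4:156200819-156201068, minus strand), the Ifit1 window (chr19:34640639-34640888, plus strand) and the Oas1a window (chr5:120907526-120907775, minus strand) end at the base before the annotated start.
Isg15: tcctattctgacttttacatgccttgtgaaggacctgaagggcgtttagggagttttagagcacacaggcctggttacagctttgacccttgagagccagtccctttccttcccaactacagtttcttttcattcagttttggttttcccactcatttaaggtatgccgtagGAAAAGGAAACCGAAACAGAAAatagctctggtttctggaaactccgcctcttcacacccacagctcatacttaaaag
Ifit1: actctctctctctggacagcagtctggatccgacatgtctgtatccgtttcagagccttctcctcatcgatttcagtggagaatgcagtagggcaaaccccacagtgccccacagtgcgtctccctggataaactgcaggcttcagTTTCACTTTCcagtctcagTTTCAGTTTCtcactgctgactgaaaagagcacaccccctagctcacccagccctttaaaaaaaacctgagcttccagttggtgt
Oas1a: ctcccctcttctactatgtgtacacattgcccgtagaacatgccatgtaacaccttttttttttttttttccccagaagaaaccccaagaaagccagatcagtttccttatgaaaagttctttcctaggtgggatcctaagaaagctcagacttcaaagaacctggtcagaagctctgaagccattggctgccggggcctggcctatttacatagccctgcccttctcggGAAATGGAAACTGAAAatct
The Isg15 window holds 3 matches, the nearest beginning 66 bases before the start, and those of Ifit1 and Oas1a hold 2 each, beginning as near as 85 and 14 bases. A match is a description of letters and does not show that a factor bound there.

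**Figure D3:**
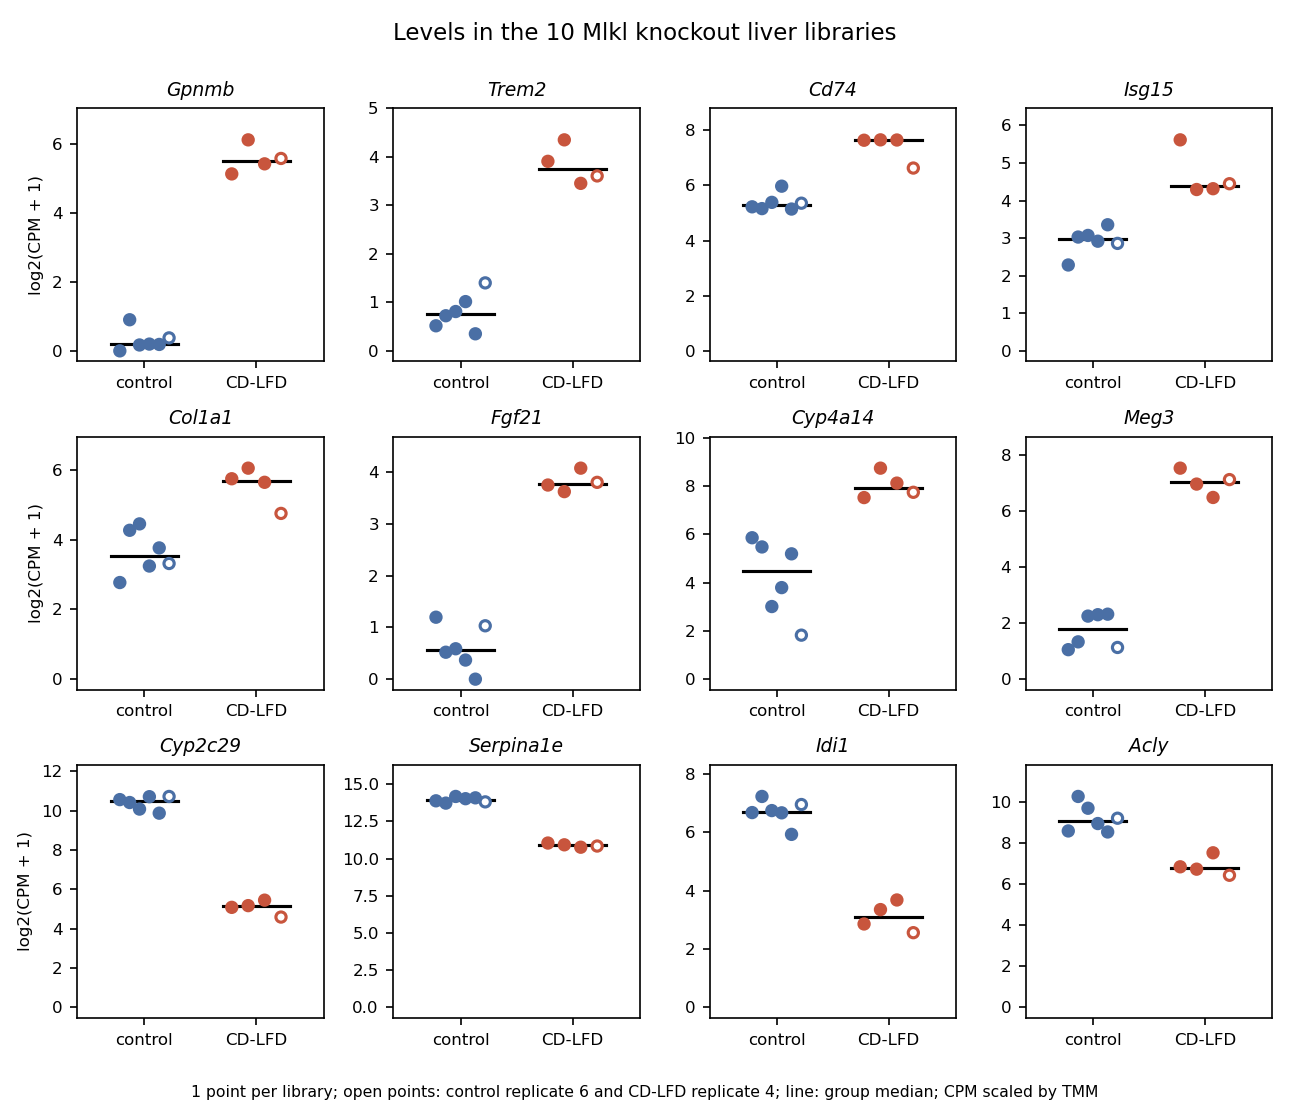
Each panel gives 1 gene in the 10 MlklKO libraries as log2(CPM + 1), with 1 point per library, lines at group medians and open points for control replicate 6 and CD-LFD replicate 4. In all 12 genes the groups are separate: 8 genes from Gpnmb to Meg3 are higher and 4 from Cyp2c29 to Acly are lower on CD-LFD.

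Fibrillar collagens and their partners were among the stellate cell and fibroblast genes that rose. Of 21 stellate cell and fibroblast genes 10 rose and 1 fell, with a median log2 change of 0.72 (0.61 with Lox at its bound). Col1a1 measured 52.6, 65.1, 48.9 and 25.9 CPM against 5.82 to 20.9, median 10.8 (log2 1.94, SE 0.34, adjusted p = 2.9e-05), with replicate 4 the lowest of the diet group. Col1a2 (log2 2.12), Col3a1 (1.76), the collagen-binding proteoglycans Lum (2.22) and Dcn (1.03) rose without overlap as well. Col4a1, a basement membrane collagen, was the member that fell, at 55.5, 57.7, 44.9 and 53 CPM against 48.6 to 135, median 127 (log2 -1.06). Lox, which crosslinks collagen, and the filament protein Vim rose too, calls lost without CD-LFD replicate 1 for Lox and without control replicate 4 or CD-LFD replicate 2 for Vim. Among the members that did not pass the test, Acta2, the actin of myofibroblasts, had a log2 change of 0.47 (adjusted p = 0.34), Timp1 1.06 (0.060) and Pdgfrb 0.23 (0.52). Timp1, an inhibitor of matrix proteases, measured 3.56, 2.98, 1.92 and 2.23 CPM against 0 to 3.23, median 1.28, and without control replicate 1, the highest control, its change passed (log2 1.45, adjusted p = 0.015). In WT, Timp1 had no count in any control, where the floor of 3 counts is 1.37 CPM, and 1.34 to 5.32 CPM on CD-LFD. The edgeR test of the difference between genotypes gave an adjusted p of 0.0024. It takes the WT change over a group without counts, so the size of the difference is not known.

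Of 8 cholangiocyte genes, Krt23, a keratin induced in injured liver, measured 4.58, 6.71, 3.85 and 2.68 CPM with all controls under the floor, at least 6.83-fold higher, and the other 7 did not pass the test. Krt19 had a log2 change of 0.89 (adjusted p = 0.12) and Sox9 of 0.49 (0.14). The list's count was 2 without CD-LFD replicate 2. Endothelial genes fell in 5 of 11 cases and rose in 1 (median -0.57). The junction proteins Cdh5 (VE-cadherin) and Pecam1 measured 7.55, 7.0, 8.66 and 4.47 against 13.8 to 26.6, median 22.9 CPM (log2 -1.61, adjusted p = 3.3e-05) and 9.92, 13, 9.94 and 7.60 against 16.6 to 22.5, median 19 (log2 -0.94, adjusted p = 1.3e-04), and the growth factor receptor Kdr fell by 1.05 on the log2 scale. Those 3 and Oit3 (log2 -1.44) did not overlap, whereas the sinusoidal scavenger receptors Stab1 (0.15) and Stab2 (0.39) did not pass the test. Cd34 rose (log2 1.57), and Lyve1 fell (log2 -0.86), a call lost without any of 5 single libraries (control replicates 2 or 3, CD-LFD replicates 1, 3 or 4). None of the 5 erythroid genes passed the test, with log2 changes of -0.49 to 0.60.

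Cell cycle genes rose in 13 of 22 cases and fell in 1. Mki67, the proliferation marker, measured 8.23, 4.92, 8.34 and 6.55 CPM against 0.828 to 2.19, median 1.32 (log2 2.28, SE 0.36, adjusted p = 5.3e-06). Cdk1, the mitotic kinase, measured 3.48, 5.51, 4.01 and 3.87 against 0.431 to 0.880, median 0.618 (log2 2.66, SE 0.27, adjusted p = 8.5e-10), and Top2a rose by 2.21 on the log2 scale. Ccnd1, the G1 cyclin, measured 57.9 to 73.6 CPM on CD-LFD against 13.7 to 29.1 in controls (log2 1.69). The replication licensing genes Mcm2 (-0.28), Mcm3 (0.33), Mcm5 (0.28) and Mcm6 (0.43) and Pcna (-0.13) did not pass the test, and the member that fell was Mcm4 (log2 -0.75), a call lost without control replicate 1 or 5 or CD-LFD replicate 1, 2 or 4. The count that fell was 2 without control replicate 4 or 6. The median was 1.68, or 0.72 with the 4 genes at the floor set to their bounds. Of 16 oncofetal and tumour genes tested 8 rose and 1 fell (median 1.10, or 0.97 with bounds): Cd44 measured 11.4, 14.8, 12.8 and 12.7 CPM against 3.58 to 8.31, median 5.45 (log2 1.20), Anxa2 rose by 1.33, Sox4 by 1.52, Cd24a by 1.54 and Afp, alpha-fetoprotein, by 0.92. Gpc3 and H19 were at or near the floor in both groups, and Tff3 fell (log2 -2.34), a call lost without CD-LFD replicate 3. Of 13 p53 targets 4 rose and 2 fell, and the count that rose was 7 without CD-LFD replicate 3. Gdf15, a stress-induced hormone, measured 30.1 to 56.8 CPM on CD-LFD against 7.18 to 9.68 in controls (log2 2.21).

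The remaining rises that the naming rule selected were in genes of varied function. Stap1, a signalling adaptor, measured 20.4, 18.3, 30.2 and 21.7 CPM with all controls under the floor, at least 34.8-fold higher (adjusted p = 2.2e-17), and Rad51b, a recombination protein, 14.8, 17.6, 16.4 and 18.8, at least 25.9-fold higher. Ubd, the ubiquitin-like protein FAT10, measured 26.7, 20.9, 19.6 and 44.5 against 0.126 to 0.869, median 0.441 CPM (log2 5.83, SE 0.49, adjusted p = 4.3e-12). Every diet value of these 3 was above every control. Meg3 and Rian are maternally expressed long noncoding RNAs of the imprinted Dlk1-Dio3 region, and both rose, Meg3 to 185, 125, 89.2 and 139 CPM against 1.08 to 4.0, median 2.64 (log2 5.64, SE 0.67, adjusted p = 3.8e-08) and Rian to 52.8, 44, 29.5 and 39.9 against 0.149 to 2.77, median 0.914 (log2 5.14). Blnk, an adaptor best known from B cells, measured 16.9, 15.5, 13.8 and 21 CPM against 0 to 1.02, median 0.424 (log2 4.98, SE 0.33, adjusted p = 3.6e-15). Aqp4, a water channel, rose by 4.67 and Cyp2d12 by 4.90 on the log2 scale. The B cell marker Cd79a measured 0.594, 1.04, 1.12 and 0.894 CPM in the same libraries.

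Fgf21, the hepatic hormone of nutrient and mitochondrial stress, measured 12.5, 11.3, 15.9 and 13 CPM against 0 to 1.29, median 0.469 (log2 4.52, SE 0.59, adjusted p = 2.3e-07), and all 4 diet values were close together and above every control. Of the 19 genes of fatty acid oxidation 6 rose and 1 fell. The PPAR-alpha targets Cyp4a14 (182, 425, 277 and 212 CPM against 2.54 to 56.9, median 24.2, log2 3.40, adjusted p = 0.0010), Cyp4a10 (log2 2.29) and Vnn1 (2.07, adjusted p = 5.9e-07) rose without overlap. The mitochondrial genes Cpt1a (-0.10), Cpt2 (0.01), Acadm (0.13) and Acadl (0.23) and Ppara itself (-0.67, adjusted p = 0.068) did not pass the test, though Ppara passed without control replicate 3 or 5 (adjusted p = 0.026 and 0.022). The member that fell, Acadvl (log2 -1.08), lost its call without control replicate 1, 2, 4 or 6 and without CD-LFD replicate 1, 2 or 4, and 2 genes fell without control replicate 3 or 5. The list's median was 0.19. Among 14 lipid droplet genes Plin5, which links droplets to mitochondria, measured 86.2 to 108 CPM on CD-LFD against 21.8 to 64.2 (log2 1.08), and Abhd5, the activator of triglyceride lipase, fell to 17.6, 19.1, 18.9 and 14.4 from 43.2 to 52.7, median 47.6 (log2 -1.45, SE 0.21, adjusted p = 2.0e-06). In all 3 rose and 2 fell, and the other fall, Plin2 (log2 -0.86), lost its call without control replicate 1, 2 or 5 or CD-LFD replicate 1, 2 or 4. Without CD-LFD replicate 2 the number that rose was 1.

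Sterol synthesis fell as a group. Of 19 genes 16 fell and none rose, with a median log2 change of -0.92, and in 10 all 4 diet values lay below all controls. Idi1, isopentenyl diphosphate isomerase, measured 6.27, 9.24, 11.9 and 4.91 CPM against 60.2 to 149.7, median 104 (log2 -3.74, SE 0.71, adjusted p = 9.4e-05). Sqle, squalene epoxidase, measured 62.2, 43.4, 40.7 and 46.3 against 144 to 258, median 227 (log2 -2.13, SE 0.31, adjusted p = 1.5e-06). Cyp51 fell by 1.30, Dhcr7 by 1.22 and Hmgcs1 by 1.16 on the log2 scale, and the transcription factor Srebf2 by 0.60. Insig1, which holds back sterol synthesis, had a log2 change of -0.30 and did not pass the test. Lipogenesis fell in 6 of 16 genes and rose in 1 (median -0.53). Acly, which makes cytosolic acetyl-CoA, measured 115, 106, 184 and 85.8 against 374 to 1242, median 546 (log2 -2.42, SE 0.44, adjusted p = 4.7e-05), and Me1, which supplies NADPH, 59.3, 74.5, 77.3 and 27.1 against 233 to 434, median 293 (log2 -2.34). Scd1, the stearoyl-CoA desaturase, fell by 1.67, Fasn by 1.37 and Acaca by 1.17. The rise was in Angptl8, an inhibitor of lipoprotein lipase, at 45.4, 39.8, 37.9 and 260.5 CPM against 12.1 to 44.9, median 23.3, and without CD-LFD replicate 4 its log2 change went from 1.88 to 0.66 (adjusted p = 0.24). With the Arntl to Dbp ratio as a covariate 15 sterol genes and 8 lipogenic genes fell.

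Genes of phosphatidylcholine synthesis moved in both directions, 4 of 12 up and 3 down. Pemt, which methylates phosphatidylethanolamine and is the route that needs no dietary choline, measured 355, 376, 378 and 412 CPM against 221 to 258, median 249 (log2 0.65, SE 0.16, adjusted p = 0.0018), with no overlap. Pcyt1a, the rate-limiting enzyme of the choline route, measured 26.7, 27, 36.7 and 31.1 against 51.8 to 112, median 96.2 (log2 -1.51, SE 0.44, adjusted p = 0.0066). The ethanolamine kinase Etnk1 fell by 1.81 and the choline transporter Slc44a1 by 0.63 on the log2 scale, and the phospholyase Etnppl rose by 1.12 and the acyltransferase Lpcat3 by 0.79. Among 14 genes of methionine and betaine metabolism none rose and 3 fell: Gnmt, which uses up methyl groups of S-adenosylmethionine, at 666, 629, 705 and 534 CPM against 1339 to 1848, median 1485 (log2 -1.30, adjusted p = 0.0022), Aldh7a1 (log2 -0.62) and Cbs (-0.68). The list's median was -0.27, and with only the compared groups in the fit 5 fell and 1 rose (5 fell with the replicate block, and 1 rose with the Arntl to Dbp ratio as a covariate). Bhmt (log2 -0.42), Mat1a (0.18) and Chdh (-0.27), enzymes on the way from choline and betaine to S-adenosylmethionine, did not pass the test. Bhmt passed without control replicate 1 (log2 -0.60, adjusted p = 0.034). Of 13 genes for apolipoproteins and VLDL assembly 3 rose and 2 fell, and 0 rose without control replicate 6 and CD-LFD replicate 4 together by the same edgeR test (7 rose with scaling by library size only). With only the compared groups in the fit 5 rose and 4 fell, with the replicate block 5 fell, and the count that fell was 1 without control replicate 1, without CD-LFD replicate 1 or 2, or without control replicate 6 and CD-LFD replicate 4 together. Mttp, which loads lipid onto apolipoprotein B, measured 156, 198, 186 and 136 CPM against 241 to 416, median 362 (log2 -1.02, SE 0.29, adjusted p = 0.0054), and Apob fell by 0.89, a call lost without control replicate 1 or CD-LFD replicate 1 or 2. The list's median was 0.24.

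Cytochromes P450 were among both the steep falls and the steep rises. Cyp2c29, an abundant arachidonic acid epoxygenase, measured 32.9, 35, 42.7 and 23.1 CPM against 931 to 1678, median 1429 (log2 -5.36, SE 0.60, adjusted p = 9.1e-09), and the groups were far apart. Cyp2c40 measured 0.509, 0.447, 0.321 and 0.447 CPM against 1.34 to 13.7, median 8.85 (log2 -4.11, SE 0.67, adjusted p = 1.0e-05). Cyp2b10, the classical target of the receptor CAR, was under the floor in every diet library and 6.89 to 27 CPM in controls, at least 30.7-fold lower (adjusted p = 4.8e-09). Its paralog Cyp2b9, which is higher in females, measured 17.1, 24.6, 35.8 and 13.3 CPM with all controls under the floor, at least 34.8-fold higher (adjusted p = 2.9e-09). Cyp2a4, another female-biased gene, measured 5.68, 22.2, 7.70 and 46.8 against 0.138 to 1.04, median 0.433 (log2 5.46, SE 0.75). Without CD-LFD replicate 4 its log2 change was 4.66. Of 20 P450 genes tested 5 rose and 7 fell (median -0.43). Cyp2c55 (log2 -2.21), Cyp2c37 (-1.09) and Cyp2j5 (-0.75) fell, Cyp2a5 (1.61) and Cyp2e1 (0.80) rose, and Cyp1a2 (-0.10) did not pass the test. Among 18 conjugating transferases tested, 6 rose and 2 fell, with the glutathione transferases Gsta1 (log2 3.04), Gsta2 (2.45), Gstm2 (1.47) and Gstm3 (1.63) all higher in every diet library (Gsta1 at 3.64 without control replicate 5), and the count that fell was 1 without any of 5 single libraries (control replicates 1, 4 or 6, CD-LFD replicates 3 or 4). Reads of such close paralogs can be split between them by the counting, so single members of the P450, transferase, serum amyloid A and urinary protein families are uncertain.

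Sult1e1, estrogen sulfotransferase, measured 182, 95.2, 114 and 100.1 CPM against 1.29 to 29.5, median 2.12 (log2 4.20, SE 0.49, adjusted p = 3.1e-08), although control replicate 6, at 29.5, was far above the other 5 controls (1.29 to 2.48). Without that library the log2 change was 5.94. Serpina1e, an alpha-1-antitrypsin paralog, measured 2118, 1951, 1744 and 1842 CPM against 13608 to 18563, median 15937 (log2 -3.06, SE 0.43, adjusted p = 7.9e-07). The major urinary proteins, male-biased pheromone carriers under growth hormone control, fell in 8 of 17 tested members and rose in 2 (median -0.70), and without control replicate 6 and CD-LFD replicate 4 together 5 fell. Mup15 measured 2.37, 4.62, 0.962 and 0.298 CPM against 32.1 to 431, median 70.5 (log2 -5.89, SE 0.77, adjusted p = 2.8e-07), and without control replicate 6, the highest control, the log2 change was -4.91. Mup17 (log2 -3.60), Mup7 (-2.43) and Mup16 (-2.20) fell without overlap, and without control replicate 6 Mup17 was at -2.83 and Mup16 at -1.56. Mup20 measured 10070.5, 9727, 6710.1 and 9513 CPM against 3057 to 6586, median 3830.0 (log2 1.08, adjusted p = 4.1e-04) and Mup21 rose by 1.64. Of 17 tested genes that are sex-biased or set by growth hormone, 4 rose and 2 fell (median 0.15, or 0.00 with 2 genes at their bounds). Igfbp2, a binding protein of insulin-like growth factors, measured 1429, 1311, 1449 and 1839 CPM against 352 to 709, median 415 (log2 1.71, SE 0.25, adjusted p = 2.7e-06), and the male-biased Hsd3b5 (-0.90) and Elovl3 (-1.06) did not pass the test. The count that rose was 2 without CD-LFD replicate 4, and the count that fell was 1 without CD-LFD replicate 1 or 3. Of the 5 sex genes, Ddx3y (log2 -1.03) and Eif2s3y fell. The call of Eif2s3y was lost without any of 8 single libraries (control replicates 1, 3, 5 or 6, CD-LFD replicates 1 to 4).

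The other steep falls named by the rule were Moxd1, a copper monooxygenase, Tmc5, a channel-like membrane protein, Nos1ap, an adaptor of nitric oxide synthase, Cadm4, a cell adhesion molecule, and Acpp, an acid phosphatase. Moxd1 was 11.6 to 151 CPM in controls and under the floor in every diet library, at least 112-fold lower (adjusted p = 1.4e-04). Tmc5 was at least 17.6-fold lower by the same bound, though control replicate 6 (1.19 CPM) was below the other 5 (8.54 to 11.3). Cadm4 measured 3.05, 2.83, 3.21 and 3.57 against 28.9 to 73.1, median 51.8 CPM (log2 -4.02, SE 0.35, adjusted p = 2.2e-11), and the groups were far apart. Nos1ap fell by 4.52 and Acpp by 3.85 on the log2 scale, both without overlap.

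Acute phase proteins, the plasma proteins that hepatocytes raise in inflammation, fell on the diet. Of 18 genes 11 fell and none rose, with a median log2 change of -1.86. Saa1, serum amyloid A, measured 116, 139, 104 and 70.0 CPM against 473 to 4053, median 1534 (log2 -4.14, SE 0.83, adjusted p = 1.8e-04), and Saa2 59.8, 69, 60.8 and 39.5 against 311 to 4159.9, median 1143 (log2 -4.72, SE 0.98, adjusted p = 2.8e-04). All 4 diet libraries were below all 6 controls in both, and without control replicate 5 the log2 change of Saa2 was -4.09. The fibrinogen chains fell together, Fga by 2.44, Fgb by 1.94 and Fgg by 1.89 on the log2 scale, as did the inter-alpha-trypsin inhibitor chains Itih4 (-2.43) and Itih3 (-1.82) and the metalloreductase Steap4 (62.9, 87.6, 74.4 and 72.4 CPM against 234 to 2674, median 1038, log2 -3.96). Hp (-0.55), Orm1 (-0.30), Hamp (0.09) and Saa3 (0.79) did not pass the test. Hp passed without control replicate 6 (log2 -0.67, adjusted p = 0.041). Without control replicate 1 the count that rose was 1, the interleukin-1 receptor antagonist Il1rn. Of 17 complement and coagulation genes 9 fell and none rose (median -0.72), C8a by 1.35, Mbl2 by 1.64 and C4b by 1.06.

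Metallothioneins, which buffer zinc and copper, fell too. Mt1 measured 74.2, 134, 34.5 and 117 CPM in the diet libraries and 2003 to 4132 in control replicates 1 to 5, but 24.2 in control replicate 6 (log2 -4.68, SE 0.79, adjusted p = 1.9e-05 with all 6). Mt2 measured 1.61, 3.73, 1.12 and 2.23 against 89.3 to 208, and 0.447 in that replicate (log2 -5.71, adjusted p = 6.9e-06). The groups overlapped through that 1 control library in both genes. Of 6 metallothionein and zinc genes 5 fell and 1 rose (median -2.0), among them the zinc importer Slc39a14 (269, 252, 258 and 313 CPM against 351 to 1281, median 893, log2 -1.69, adjusted p = 2.3e-06) and the manganese exporter Slc30a10 (-2.31), and the rise, Slc39a4, lost its call without CD-LFD replicate 1. The same control library was low for Cxcl1 (6.56 CPM against 188 to 354 in the other 5 controls and 14.2, 16.5, 16.5 and 11.2 on CD-LFD), Lcn2 (16.3 against 182 to 818, and 81.8, 83.5, 81 and 92.5) and Srxn1 (29.5 against 262 to 619, and 56.2, 58, 70.1 and 77.1). Lcn2, lipocalin-2, fell by 2.0 on the log2 scale (adjusted p = 0.034), a call lost in 9 of 19 alternatives (highest adjusted p = 0.10), among them without control replicates 1 or 5 and without each of the CD-LFD replicates. Of 1989 genes that fell and whose 4 diet values lay below control replicates 1 to 5, control replicate 6 lay at or below the highest diet value in 383. Of 2098 genes that rose with the 4 diet values above those controls, replicate 6 lay at or above the lowest diet value in 275. Such counts were not made for the other controls.

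**Figure D4:**
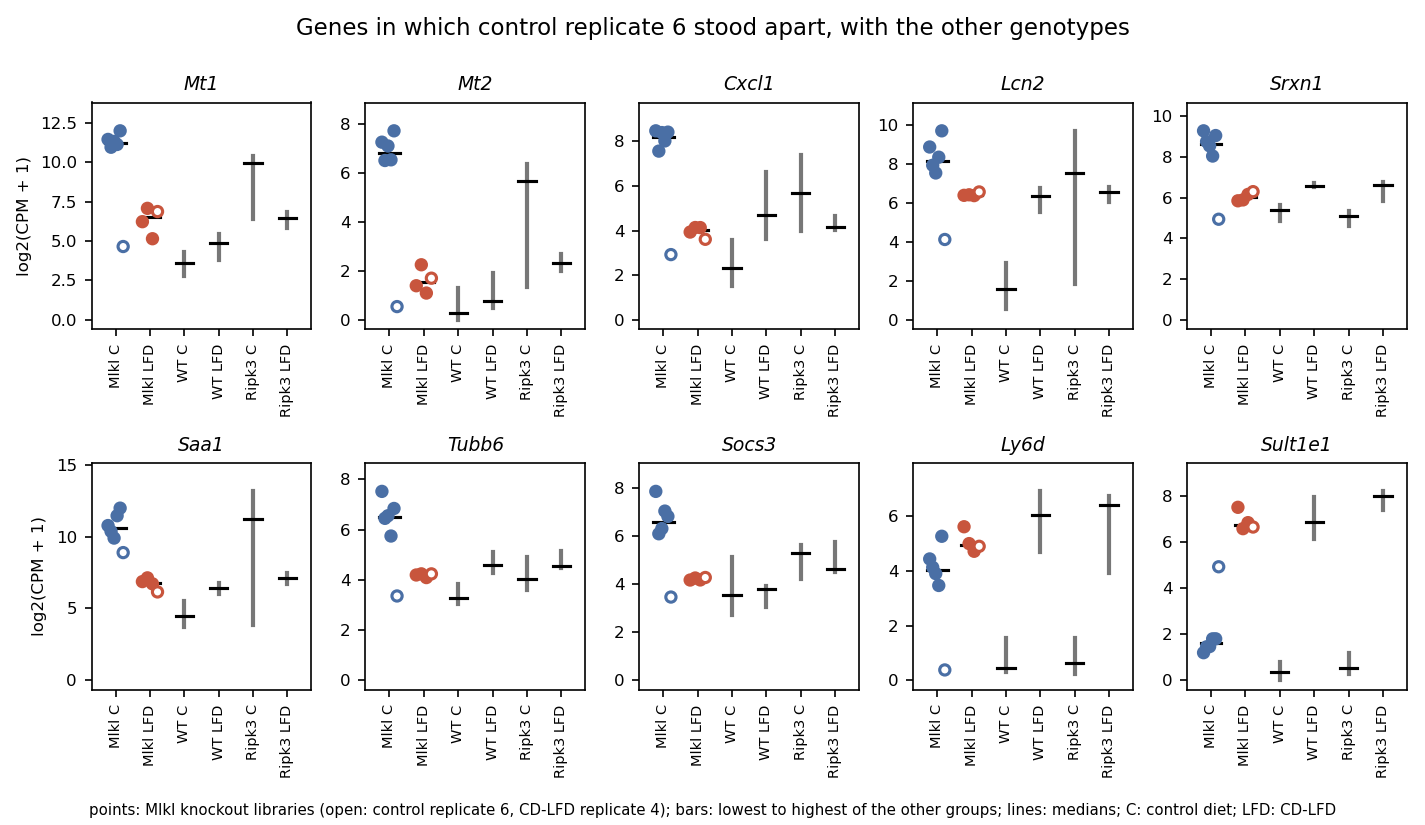
Each panel gives 1 gene as log2(CPM + 1): points are MlklKO libraries on the control diet (C) and CD-LFD (LFD), open for control replicate 6 and CD-LFD replicate 4, and grey bars run from the lowest to the highest WT or Ripk3KO library, with lines at medians. Control replicate 6 lies below the other 5 controls in 9 genes and above them in Sult1e1, and the WT controls lie below control replicates 1 to 5 in Mt1, Mt2, Cxcl1, Lcn2, Srxn1 and Saa1.

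Levels in control livers are given by genotype. In WT controls Mt1 was 5.84 to 18.7 CPM, Saa1 12.3 to 43.7, Lcn2 0.456 to 6.60 and Cxcl1 1.83 to 10.8, below MlklKO control replicates 1 to 5 in each gene. On CD-LFD the genotypes were nearer, with Saa1 at 62.2 to 111 CPM in WT, 104 to 179 in Ripk3KO and 70.0 to 139 in MlklKO, and Lcn2 at 44.6 to 106, 65.1 to 109 and 81 to 92.5. Ripk3KO controls were spread, with Saa1 at 13.2 to 9103 CPM and Mt1 at 84 to 1365. No test of the difference between the genotypes' control groups is reported here, and how the mice of each genotype were kept cannot be told apart from genotype.

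Promoter letters were looked at for these 2 lists, since most of their genes fell. The metal response element, TGCACNC or TGCGCNC on either strand, was found in the 250 bases before the start of all 4 metallothionein and zinc genes that the table holds (Mt1, Mt2, Slc30a1, Slc30a10) and in 21.3% of all promoters. The core of the element bound by C/EBP factors, TTGCNNAA on either strand, was found in 8 of 16 acute phase genes (Saa1, Saa2, Saa3, Lcn2, Orm2, Fga, Fgb and Steap4) and in 9.55% of all promoters. The windows shown are those of the 2 metallothioneins (chr8:94178839-94179088 and chr8:94172368-94172617, both plus strand) and the 2 serum amyloid A genes (chr7:46742981-46743230, minus strand, and chr7:46751583-46751832, plus strand), 5' to 3' with matches in capitals (RefSeq, GRCm38.p6).
Mt1: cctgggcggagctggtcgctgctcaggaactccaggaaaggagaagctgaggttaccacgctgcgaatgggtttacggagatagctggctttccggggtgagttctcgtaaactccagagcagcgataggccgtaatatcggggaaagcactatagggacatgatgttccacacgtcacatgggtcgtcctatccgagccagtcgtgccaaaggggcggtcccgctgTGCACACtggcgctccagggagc
Mt2: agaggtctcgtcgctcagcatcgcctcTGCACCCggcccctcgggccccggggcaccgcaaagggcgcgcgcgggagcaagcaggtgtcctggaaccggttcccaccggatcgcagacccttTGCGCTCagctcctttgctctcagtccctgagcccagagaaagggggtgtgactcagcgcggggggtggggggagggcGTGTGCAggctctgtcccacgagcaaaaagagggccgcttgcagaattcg
Saa1: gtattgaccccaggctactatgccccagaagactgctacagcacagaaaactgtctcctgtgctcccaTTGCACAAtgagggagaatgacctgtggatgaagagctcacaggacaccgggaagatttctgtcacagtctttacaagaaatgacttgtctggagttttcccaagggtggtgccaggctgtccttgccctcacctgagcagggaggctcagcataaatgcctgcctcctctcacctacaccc
Saa2: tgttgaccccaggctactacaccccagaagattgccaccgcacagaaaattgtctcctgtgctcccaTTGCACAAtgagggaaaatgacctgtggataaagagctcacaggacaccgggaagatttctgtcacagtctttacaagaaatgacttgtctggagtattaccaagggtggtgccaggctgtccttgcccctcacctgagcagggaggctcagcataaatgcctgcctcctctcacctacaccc
Mt1 holds 1 match, beginning 23 bases before the start, and Mt2 holds 3, the nearest at 50 bases. Saa1 and Saa2 hold 1 match each, at 182 and 183 bases, in windows that are close copies of each other. A match alone gives no evidence of binding.

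Antioxidant genes driven by NRF2 were split, with 4 of 12 higher and 4 lower (median -0.02). Srxn1, sulfiredoxin, fell by 2.51 on the log2 scale (SE 0.36, adjusted p = 1.7e-06), Txnrd1 by 1.57, Gclc by 1.54 and Gsr by 0.91, while Nqo1 measured 7.80, 8.20, 8.66 and 13.4 CPM against 1.90 to 4.96, median 3.46 (log2 1.49, adjusted p = 1.3e-04). The count that rose was 2 without control replicates 3 or 5 or CD-LFD replicate 4. Among 17 unfolded protein and integrated stress genes, 5 rose and 4 fell (median -0.38). The endoplasmic reticulum chaperone Hspa5 (BiP) measured 1138 to 1666 CPM on CD-LFD against 2416 to 4312 in controls (log2 -1.15, adjusted p = 0.0048), Hsp90b1 fell by 0.85 and the transcription factor Xbp1 by 1.30. Atf3, a stress-induced transcription factor, measured 12.7, 16.4, 8.02 and 22.3 CPM against 0.895 to 6.03, median 1.73 (log2 2.78, SE 0.43, adjusted p = 4.2e-06) and the pseudokinase Trib3 rose by 2.69. The count that rose was 2 or 3 without any of 6 single libraries (control replicates 1, 4 or 6, CD-LFD replicates 1 to 3). Of 12 heat shock genes none rose and 5 fell (median -0.60), with Dnaja1 at log2 -0.89 (not called without CD-LFD replicate 3) and Hspd1 at -0.86. The count that fell was 3 without control replicate 1 or 2 or CD-LFD replicate 1, and 1 without CD-LFD replicate 3, and 1 gene rose without control replicate 1.

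Bile acid genes rose in 4 of 15 cases and fell in 6 (median -0.44). Cyp7b1, of the alternative pathway, measured 210.2, 189, 181 and 134 CPM against 286 to 709.7, median 456 (log2 -1.36, SE 0.33, adjusted p = 0.0015), and the conjugating enzymes Slc27a5 and Baat fell by 0.80 and 0.56 on the log2 scale. Nr0b2 (SHP), the repressor induced by bile acids, rose by 1.48, and Abcb4, which puts phosphatidylcholine into bile, by 0.66. Cyp7a1, the rate-limiting enzyme of the classical pathway, was at 25.6 to 251 CPM on CD-LFD and 8.62 to 137 in controls and did not pass the test. The count that rose was 2 without control replicate 3, and the count that fell was 3 without control replicate 6 and CD-LFD replicate 4 together. Among 11 hepatocyte transcription factors 5 fell and 1 rose (median -0.82): Foxa3 measured 53.7, 53.9, 40.6 and 80.9 CPM against 58 to 212, median 114 (log2 -1.14, SE 0.30, adjusted p = 0.0027), with groups that overlapped, and the xenobiotic receptor Nr1i2 (PXR) rose by 0.85. Of the 8 hepatocyte markers, Cps1, the entry enzyme of the urea cycle, fell to 1524, 2097, 2158 and 1681 CPM from 2959 to 6741, median 5923 (log2 -1.56, adjusted p = 0.0061), Hnf4a fell by 0.87 and Ttr rose by 0.60, a call lost without CD-LFD replicate 1 or 4.

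Pericentral genes set by Wnt signalling rose in 6 of 12 cases and fell in 1 (median 0.53). Lect2 measured 194, 193, 239 and 245 CPM against 59.1 to 92.6, median 83.6 (log2 1.46, SE 0.17, adjusted p = 1.3e-08), and Glul, glutamine synthetase, 1562, 1304, 1615 and 1549 against 720.1 to 1038, median 967 (log2 0.70). Rhbg, an ammonium transporter, rose by 2.31 and the Wnt target Sp5 by 1.64, and Tbx3 fell by 1.05 on the log2 scale. Of 10 periportal and urea cycle genes none fell and Aldh1b1 rose (log2 1.36), the others including Ass1 (-0.10) and Otc (0.12) not passing the test, and without control replicate 6 the counts were 1 that fell and 2 that rose. Among 16 glycolysis and gluconeogenesis genes 3 rose and 2 fell (median 0.10): Gys2, liver glycogen synthase, measured 351, 391, 507 and 456 CPM against 111 to 232, median 168 (log2 1.34, SE 0.27, adjusted p = 1.8e-04), and Pfkfb3 fell by 1.37. Oxidative phosphorylation genes rose in 2 of 21 cases and fell in 1 (median 0.37), with mt-Atp6 at log2 1.01 and Ndufb5 at 0.55. The fall, Ndufs1 (log2 -0.71), was lost without CD-LFD replicate 1, and 2 genes fell without control replicate 5. With only the compared groups in the fit 9 rose and 5 fell, with the replicate block 4 rose and 5 fell, with the Arntl to Dbp ratio as a covariate 8 rose and 2 fell, with DESeq2 5 rose and 2 fell, and with scaling by library size only 7 rose.

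Clock genes rose in 6 of 18 cases and fell in 1 (median 0.65). Per2 measured 81, 79.9, 70.4 and 217 CPM against 29 to 54.6, median 39 (log2 1.51, SE 0.32, adjusted p = 3.4e-04), Per3 54.2, 50.5, 63 and 78.8 against 11.6 to 32.5, median 18.9 (log2 1.64) and the deubiquitinase Usp2, a clock output, 77.2, 93.9, 64.8 and 157 against 5.60 to 54.6, median 15.1 (log2 2.16). Nfil3, which peaks opposite to Dbp, fell by 1.43 on the log2 scale. Arntl (-0.64) and Dbp (1.28) themselves did not pass the test, although their ratio separated the groups, and Dbp passed without control replicate 6 (log2 1.55, adjusted p = 0.029). With that ratio as a covariate Usp2 had a log2 change of 1.16 (adjusted p = 0.0086), Ciart of 0.73 (0.080), and 5 clock genes rose, but such a fit compares groups that share no value of the covariate. Of 12 genes induced by glucocorticoids or fasting 4 rose and none fell (median 0.21), among them Tsc22d3 (GILZ, log2 1.13) and Ppargc1a (1.53), while Fkbp5 (-0.59) and Tat (-0.10) did not pass the test.

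Among 18 necroptosis and cell death genes 4 rose and 2 fell (median 0.35). Ripk3, the kinase that activates MLKL, measured 1.87, 1.94, 1.76 and 2.08 CPM against 0.729 to 1.76, median 1.16, low in every library (log2 0.73, SE 0.50, adjusted p = 0.25). Zbp1, a sensor that can engage RIPK3, measured 20.5, 10.6, 21.2 and 25.5 against 2.98 to 9.38, median 6.31 (log2 1.61, SE 0.31, adjusted p = 9.6e-05), and the inflammasome genes Pycard and Casp1 rose by 2.17 and 1.69. Ripk1 fell to 20.3, 25.9, 25.3 and 17.9 CPM from 36.4 to 76.9, median 47 (log2 -1.17, adjusted p = 9.5e-05), without overlap, and the TNF receptor Tnfrsf1a by 1.64 on the log2 scale. Casp8 (-0.33), Fadd (0.14) and Gsdmd (-0.02) did not pass the test, though Casp8 passed without control replicate 6 or CD-LFD replicate 4 (adjusted p = 0.0033 and 0.041).

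The same genes were tested for the diet in the other genotypes. In WT 27.7% of genes were called on the same diet and in Ripk3KO 24.1%, and these comparisons share no library with the MlklKO comparison. Of the 5638 genes called in MlklKO 37.6% were called in the same direction in WT, which is 51.5% of the WT calls, and 124 were called in opposite directions. With Ripk3KO the shares were 43.6% and 68.8%. In 81.0% of the MlklKO calls the sign in WT was the same and in 93.2% the sign in Ripk3KO, and 1582 genes were called in the same direction in all 3 genotypes. Gpnmb, for example, had a log2 change of 6.84 in WT and 7.67 in Ripk3KO, Cyp2c29 -4.49 and -5.02, Serpina1e -2.93 and -3.01, and Meg3 3.64 and 4.94.

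The response differed from that of WT in 1256 genes (8.45%), by the test of the interaction of diet and genotype, 649 (4.37%) with a more positive and 607 (4.08%) with a more negative change in MlklKO. The count was 829 without MlklKO control replicate 1, 1868 without MlklKO control replicate 6 and 741 with only the compared groups in the fit, and with scaling by library size only the split was 387 more positive and 1108 more negative. Of the 18 acute phase genes 10 passed, all on the negative side, and of the 18 in WT 7 rose and 2 fell where in MlklKO none rose and 11 fell. Over all genes tested 13.7% rose and 14.0% fell in WT, and 19.7% and 18.3% in MlklKO. Saa1 changed by 1.83 in WT (62.2 to 111 CPM on CD-LFD against 12.3 to 43.7 in controls) and by -4.14 in MlklKO (difference -5.97, SE 1.04, adjusted p = 3.8e-04). Lcn2 changed by 4.96 and -2.0 (difference -6.96, adjusted p = 2.7e-04), Mt1 by 1.33 and -4.68 (difference -6.01, adjusted p = 2.6e-04) and Cxcl1 by 2.72 and -4.08 (difference -6.80, adjusted p = 2.7e-05). The fitted change was above 0 in WT and below 0 in MlklKO in each of these 4 genes. Mt2 (-6.94), Saa2 (-6.87), the adenylate cyclase Adcy1 (-5.96) and Ly6d (-5.75) complete the 8 largest negative differences. Without WT control replicate 6 those of Mt2, Saa2 and Ly6d were -7.97, -7.75 and -6.43, without MlklKO control replicate 5 that of Saa2 was -6.25, without WT control replicate 3 that of Adcy1 was -6.55 and without WT CD-LFD replicate 1 that of Cxcl1 was -6.19. Adcy1 measured 3.39, 3.73, 1.44 and 0.149 CPM on CD-LFD against 0.149 to 28.2, median 11.1 in MlklKO. Ly6d, a small membrane protein, measured 48.1, 31, 25.3 and 28.9 CPM on CD-LFD and 10.1 to 37.5 in control replicates 1 to 5, against 0.298 in control replicate 6 and 0.244 to 1.96 in WT controls, and it did not pass the test of diet within MlklKO (adjusted p = 0.082, and 0.016 without control replicate 5).

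On the positive side, 7 clock genes passed. In WT none of the 18 clock genes rose and 6 fell, where 13.7% of all genes rose and 14.0% fell. The number that passed was 3 with the Arntl to Dbp ratio as a covariate, 2 without WT control replicates 2 and 4, and 4 without WT control replicate 4, without MlklKO CD-LFD replicate 4 or with only the compared groups in the fit. Usp2 changed by -2.68 in WT and 2.16 in MlklKO (difference 4.84, SE 0.87, adjusted p = 4.6e-04) and Ciart by -1.80 and 1.81 (difference 3.61, adjusted p = 0.0047). The Arntl to Dbp ratio differed between these groups as well: with it as a covariate the Ciart difference was 1.13 (adjusted p = 0.21) and that of Usp2 2.59 (0.0012), and without WT control replicates 2 and 4, whose ratios were far below the other WT controls, Ciart was 0.75 (0.57). Without WT control replicate 2 alone Ciart was 2.79 (0.025) and Usp2 4.19 (0.0016). Urinary proteins fell in 14 of 17 genes in WT, where 14.0% of all genes fell, and in 8 in MlklKO, where 18.3% did. Of these 17 genes 6 passed the test of the difference, all more positive in MlklKO. Without CD-LFD replicate 1 of MlklKO 3 passed, and Mup14 was among those that did not (adjusted p = 0.064). Mup20 changed by -0.16 and 1.08 (difference 1.24, adjusted p = 0.010) and Mup14 by -2.36 and -0.57 (difference 1.79, adjusted p = 0.015). Clec2h, a lectin-like receptor, was 15.8, 11.2, 14.3 and 9.38 CPM against 0.414 to 2.39, median 0.908 in MlklKO, a rise of 3.46 where WT had 0.09 (difference 3.38, adjusted p = 0.0044), and Cabyr had a difference of 2.96. In the remaining 4 of the large positive differences CD-LFD replicate 4 was the highest of the diet group. Lars2, a mitochondrial leucyl-tRNA synthetase, measured 134, 119, 109 and 5462 CPM, Nrep 12.3, 18.8, 10.6 and 116, Angptl8 45.4, 39.8, 37.9 and 260.5 and the thioesterase Acot3 2.80, 5.22, 3.37 and 23.4. Without that library the differences were 0.82 for Lars2 (adjusted p = 0.76), 1.75 for Nrep (0.071), 2.17 for Angptl8 (0.014) and 3.71 for Acot3 (0.072). The Acot3 difference was 2.41 (0.30) with the Arntl to Dbp ratio as a covariate, 2.79 (0.25) without WT control replicates 2 and 4, and 4.10 (0.048) without WT control replicate 4 alone. The Lars2 call was lost in 18 of 31 alternatives (2.84, adjusted p = 0.19, without WT control replicate 5, and 6.18, 0.0053, without WT CD-LFD replicate 5), and in MlklKO alone the diet calls of Lars2, Nrep, Angptl8 and Acot3 were each lost without that library. The Acot3 diet call was also lost without control replicate 2, 5 or 6. Mitochondrial transcripts took 7.63% of counts in that library, the highest of the 10, and whether this bears on Lars2 was not tested.

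**Figure D5:**
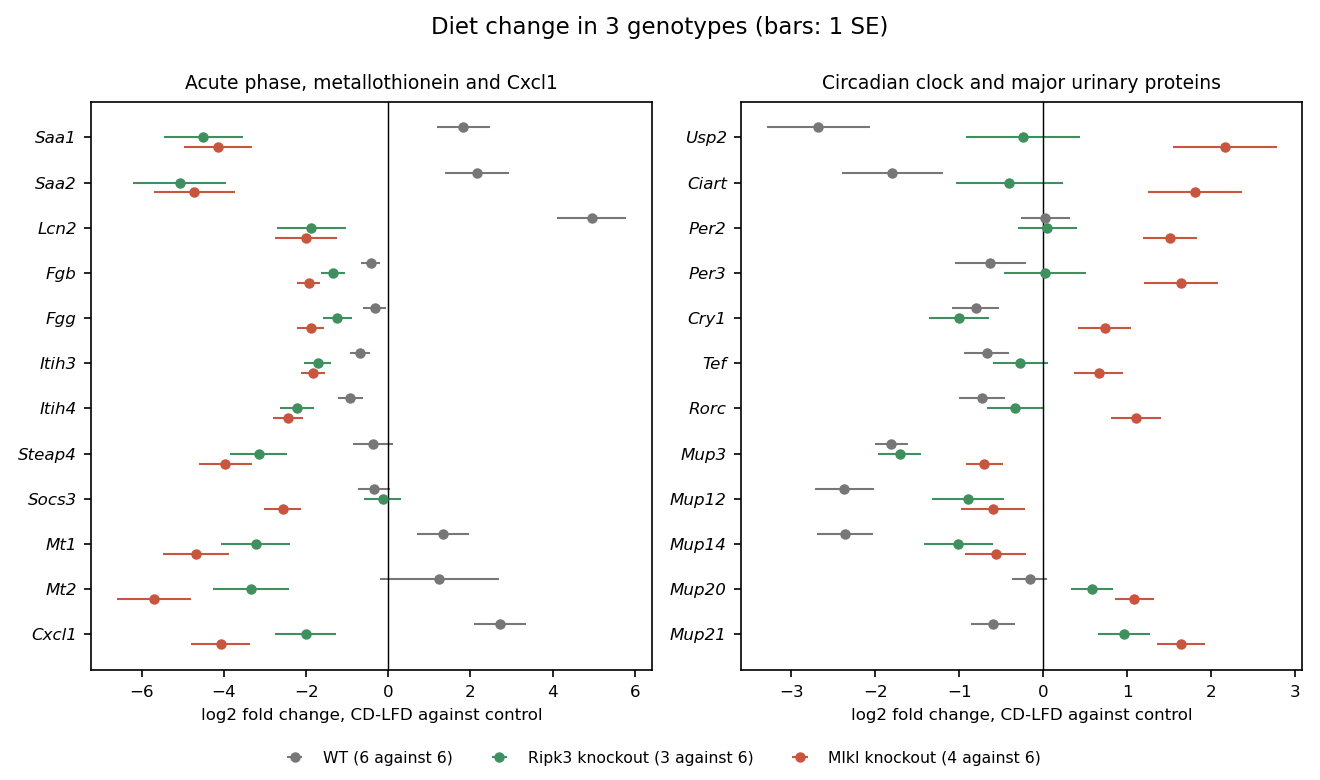
Points are log2 fold changes of CD-LFD against control in WT (6 against 6 libraries), Ripk3KO (3 against 6) and MlklKO (4 against 6), with bars of 1 SE, for acute phase and metallothionein genes with Cxcl1 (left) and for clock and urinary protein genes (right). Saa1, Saa2, Lcn2, Mt1, Mt2 and Cxcl1 lie right of 0 in WT and left of 0 in both knockouts, and Usp2 and Ciart lie right of 0 in MlklKO and left of 0 in WT.

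The diet change differed between the 2 knockouts in 38 genes (0.256%) by the test of the interaction, with 3 Ripk3KO libraries on CD-LFD. In MlklKO the change was more positive in 9 (0.0606%) and more negative in 29 (0.195%). Srxn1 changed by 1.41 in Ripk3KO (56.5 to 106 CPM on CD-LFD against 23.3 to 38.9 in controls) and by -2.51 in MlklKO (difference -3.93, SE 0.50, adjusted p = 1.5e-05). Ly6d changed by 6.61 in Ripk3KO (difference -5.58, adjusted p = 6.6e-04), Sult1e1 by 8.64 (difference -4.44, adjusted p = 0.011) and the tubulin Tubb6 by 0.52 (difference -2.89, adjusted p = 0.0060). Tubb6 in MlklKO was 17.3, 17.9, 16 and 17.9 CPM on CD-LFD and 52.7 to 183 in control replicates 1 to 5, with 9.25 in control replicate 6. Ugt2b37 (-3.80), Cyp2c40 (-3.92), Epcam (-3.38) and Plet1 (-2.99) were the other negative differences by the naming rule, and Ces1b (2.59), Kansl1l (1.31), Chac2 (1.28), Inhbc (1.12) and Ugt2b36 (0.93) the positive ones. Ces1b, a carboxylesterase, measured 155, 163, 134 and 178 CPM against 43.2 to 77, median 57.3 in MlklKO (log2 1.46) and 128 to 163 against 86.1 to 708 in Ripk3KO (log2 -1.14). Without MlklKO control replicate 6 the Sult1e1 difference was -2.70 (adjusted p = 0.013). Without Ripk3KO CD-LFD replicate 3 that of Cyp2c40 was -2.36 (0.61) that of Epcam -1.78 (0.59) and that of Plet1 -2.28 (0.36). Epcam was -2.76 (0.097) without MlklKO control replicate 1, and Ugt2b37 -3.20 (0.10) without Ripk3KO CD-LFD replicate 1. Each of the 15 calls followed here was lost in at least 1 alternative, Srxn1 and Ly6d in 1 of 29, Tubb6 and Ugt2b37 in 2, Sult1e1 in 3, Kansl1l in 4, Chac2 and Plet1 in 8, Anxa2 in 12, Ces1b, Cyp2c40 and Epcam in 16, Inhbc in 17, Col4a1 in 18 and Ugt2b36 in 20. With only these 4 groups in the fit, edgeR called 0 genes (1386 had an unadjusted p under 0.05), and DESeq2 called 114 with all groups. The count was 2 without Ripk3KO CD-LFD replicate 1, 12 without Ripk3KO CD-LFD replicate 3 and 215 without MlklKO control replicate 6. It was 18 to 63 without any of 10 others (Ripk3KO control replicates 1 to 3 and CD-LFD replicate 2, MlklKO control replicates 1 and 5 and CD-LFD replicates 1 to 4).

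The high-fat form of the diet has 3 MlklKO libraries, and its comparison shares the 6 control libraries, so the values stand side by side and do not support each other. Against those controls 45.2% of genes were called, 24.9% higher and 20.3% lower. Gpnmb was 345 to 698 CPM on CD-HFD (log2 11.05) and 34 to 68.4 on CD-LFD, Col1a1 176 to 291 (log2 4.30) and 25.9 to 65.1, and Mki67 20.4 to 33.6 (4.29) and 4.92 to 8.34. The lipid-associated macrophage list had a median of 4.06 on CD-HFD and 2.04 on CD-LFD, the stellate cell list 2.17 and 0.72, the cholangiocyte list 3.21 and 0.83, and the urinary protein list -4.60 and -0.70. Interferon-stimulated genes had medians of 2.38 and 1.94 and acute phase genes of -1.40 and -1.86.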

How the data were processed

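Liver RNA was sequenced in 44 libraries of 9 groups (genotype by diet). The deposited table holds raw read counts per gene; per the submitters' processing notes FastQC, STAR, HTSeq, edgeR, limma and build GRCm39 (mm39) were used, without versions, and the annotation release is not given in the sources used here. The kit marks strand, per the labels' protocols, but whether counting used strand is not stated, so overlapping and antisense genes are uncertain. Of 35249 gene IDs 34373 were paired with symbols and 876 kept their ID.

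Genes passing filterByExpr (minimum count 10) numbered 14862 and held 99.8% of counts. One edgeR 4.0.16 quasi-likelihood fit (R 4.3.3) over the 9 groups with TMM scaling gave the diet change in MlklKO and its interaction with WT and with Ripk3KO, adjusted by Benjamini-Hochberg over all genes. Text genes are the 12 largest rises and 12 largest falls without overlap, and up to 8 interactions per direction, at a mean log2 CPM (prior count 2) of at least 1 and leaving out predicted genes and pseudogenes, plus Mlkl, Ripk3 and members of 46 gene lists, whose examples were chosen after their values were seen. The members and lists were chosen with earlier results of these data known. Simulated counts for 14176 genes recovered 66% of 2-fold and 94% of 4-fold diet changes (37% and 88% for the interaction with WT, 28% and 79% with Ripk3KO). The changed genes were few, had a log2 mean CPM above 1 and differed only in MlklKO CD-LFD. All groups otherwise shared 1 mean per gene, unlike these data, so the shares do not give the sensitivity of the tests reported here.

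Alternatives were RLE or library-size scaling, no count filter, a robust fit, a replicate block, a clock covariate, only the compared groups, DESeq2 1.42.0 and leaving out each library; leaving out pairs of libraries was added after seeing the data. Some members of the lists are counted but not reported by name here.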

Additional observations from a re-analysis of the deposited data

Results flagged for a closer look

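Single libraries stood apart within the MlklKO groups, by the gap between the extreme library and its nearest neighbour relative to the group's range. For genes the gap was taken on log2 CPM, and the values below are CPM. Control replicate 6 was the lowest control for Mt1 (24.2 CPM), Mt2 (0.447), Cxcl1 (6.56), Srxn1 (29.5), Ly6d (0.298), Adcy1 (0.149) and Tmc5 (1.19), and the highest for Sult1e1 (29.5). CD-LFD replicate 4 was the highest of its group for Lars2 (5462 CPM) and Angptl8 (260.5). CD-LFD replicate 1 had the highest total count of its group (12471844), and control replicate 1 the lowest TMM factor of its group (0.816). That makes 12 of 112 groups of values tested, and 8 of the 12 are the same control library. The genes were selected from these same libraries, so a chance rate does not apply to this count.

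The change on CD-LFD differed between MlklKO and WT, by the edgeR test of the interaction, in 28 of the genes selected by the naming rule. The log2 difference (MlklKO minus WT) was positive for Acot3 (4.90), Usp2 (4.84), Lars2 (4.42), Ciart (3.61), Angptl8 (3.40), Clec2h (3.38), Nrep (3.25), Cabyr (2.96), Blnk (2.54), Ces1b (1.74), Chac2 (1.20) and Inhbc (0.86). It was negative for Lcn2 (-6.96), Mt2 (-6.94), Saa2 (-6.87), Cxcl1 (-6.80), Mt1 (-6.01), Saa1 (-5.97), Adcy1 (-5.96), Ly6d (-5.75), Ugt2b37 (-5.07), Sult1e1 (-4.64), Nos1ap (-4.05), Srxn1 (-3.77), Tubb6 (-3.77), Steap4 (-3.60), Epcam (-2.88) and Plet1 (-1.92). Without MlklKO control replicate 6 the difference for Sult1e1 was -2.90, and without WT control replicate 6 that for Ces1b was 1.10 (adjusted p = 0.10). That for Epcam was -2.27 without MlklKO control replicate 1, and that for Plet1 lost its call in 10 of 32 alternatives.

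Between MlklKO and Ripk3KO the change on CD-LFD differed in 13 such genes. The log2 difference (MlklKO minus Ripk3KO) was positive for Ces1b (2.59), Kansl1l (1.31), Chac2 (1.28), Inhbc (1.12) and Ugt2b36 (0.93), and negative for Ly6d (-5.58), Sult1e1 (-4.44), Srxn1 (-3.93), Cyp2c40 (-3.92), Ugt2b37 (-3.80), Epcam (-3.38), Plet1 (-2.99) and Tubb6 (-2.89).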

How the results depend on the processing

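The diet comparison in MlklKO called 4316 to 5643 genes when single libraries were left out (2274 to 2916 higher, 2042 to 2749 lower) and stayed within 1.5 times of 5638 under every alternative tried. Of 340 called genes followed, 250 kept their call and direction in all of them, 90 lost it in at least 1, and 0 reversed.

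The difference from WT called 829 to 1868 genes without single libraries (428 to 956 more positive, 401 to 912 more negative). With only the compared groups in the fit the counts were 741, 340 and 401; with scaling by library size only, 387 more positive and 1108 more negative; and without the count filter, 374 more positive. Of 102 genes followed, 47 lost their call in at least 1 alternative.

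The difference from Ripk3KO (38 genes, 9 and 29) called 2 to 215 without single libraries (0 to 82 more positive, 2 to 133 more negative). It was 78 (72 more negative) with library size only, 21 (5 and 16) with the clock covariate, 0 (0 and 0) with only the compared groups, 114 (33 and 81) with DESeq2, 160 (53 and 107) without MlklKO control replicate 6 and CD-LFD replicate 4, and 15 (1 and 14) without Ripk3KO control replicates 1 and 2. The cause was not tested for any of these.

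Deviations from the group means of same-numbered MlklKO control and CD-LFD libraries correlated at -0.11, 0.056, -0.069 and -0.032. Differently numbered ones among replicates 1 to 4 correlated at -0.108 to 0.085. So few values cannot show whether a pairing or batch goes with the replicate number. With the replicate number as a block, 6396 genes were called for the diet, 1418 for the difference from WT and 17 (3 and 14) for that from Ripk3KO.

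Low genes are limited by depth, since the floor of 3 counts lies at 0.652 CPM in the controls and 0.481 on CD-LFD.

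Counts of list members called for the diet also moved by over 1.5 times beyond what is given with the lists. With only the compared groups in the fit, 2 cholangiocyte, 2 hepatocyte, 2 hepatocyte factor and 2 periportal genes rose, and 2 cell cycle, 3 fatty acid oxidation, 1 glucocorticoid, 0 NF-kB and 1 growth hormone genes fell. With the replicate block, 2 cholangiocyte and 1 acute phase genes rose, and 2 cell cycle, 3 fatty acid oxidation, 4 growth hormone and 4 transferase genes fell. With the clock covariate 3 cholangiocyte genes rose, and 2 cell cycle, 2 fatty acid oxidation, 1 glucocorticoid, 1 growth hormone, 1 lipid droplet and 0 monocyte and neutrophil genes fell. With scaling by library size only, 2 hepatocyte, 2 hepatocyte factor, 2 periportal and 5 lipid droplet genes rose, and 0 cell cycle, 0 fatty acid oxidation, 3 heat shock, 1 lipid droplet, 1 NF-kB and 1 transferase genes fell. With RLE scaling or DESeq2 2 hepatocyte genes rose, with RLE scaling 1 transferase gene fell, and with the robust fit 0 fatty acid oxidation genes fell. Without the count filter 0 hepatocyte and 3 NF-kB genes rose and 0 cell cycle genes fell. Without MlklKO control replicate 6 and CD-LFD replicate 4, 2 endothelial, 0 hepatocyte, 0 lipogenic, 1 oxidative phosphorylation, 2 growth hormone and 3 stress genes rose, and 0 B cell, 0 cell cycle, 0 fatty acid oxidation, 1 glycolysis, 1 periportal and 1 transferase genes fell.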
